A study of Mus musculus with 6 samples.

Results

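Splicing of U2af1 and of 7 genes whose products work beside it at the 3′ splice site was described in N2a (Neuro-2a) cells, which are an established line from a mouse neuroblastoma. The genes were U2af1, U2af2, U2af1l4, Zrsr2, Sf1, Sf3b1, Slu7 and Puf60. Every event filed under one of these 8 symbols in the splicing table of the series was taken, which gave 57 of the 45595 events, in 7 of the 9594 genes. No event was listed for Zrsr2. The genes were chosen by symbol after U2af1 and Slu7 had stood out in the authors' adjusted p and inclusion differences of this same contrast. Inclusion levels of U2af1 and Slu7 are therefore a description, with no test. The groups named by the labels were 3 wild-type libraries and 3 libraries of hnRNP DL-/- cells, with no further treatment named for either. Hnrnpdl encodes hnRNP DL, one of the heterogeneous nuclear ribonucleoproteins, which bind RNA. The table holds the libraries as 2 sets of 3 and ties neither set to a genotype, so differences are given as set 1 minus set 2, with no genotype inferred.

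An intron ends in a branch point, a pyrimidine tract and an AG, and these are read by different proteins before the first catalytic step. SF1 binds the branch point, U2AF2 the pyrimidine tract and U2AF1 the AG. SF3B1, a subunit of the U2 small nuclear ribonucleoprotein (U2 snRNP), then takes over the branch point region. PUF60 is a pyrimidine-tract binding relative of U2AF2, U2AF1L4 (also called U2AF26) is a paralogue of U2AF1, and ZRSR2 reads the acceptors of minor introns. SLU7 acts later, at the second catalytic step, where it helps to hold the exon that is to be joined at the correct AG.

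The junction described first was in U2af1 (chr17:31647081-31658892, minus strand, GRCm38, which is the assembly of build mm10), a gene chosen for its difference between the sets. The exons that this junction leaves out are shown because all of the U2af1 results turn on them. The first coding exon is followed by an 88-base coding exon (chr17:31654979-31655066), then by 1 of 2 alternative 67-base coding exons, and then by a 50-base coding exon (chr17:31648845-31648894). All sequences are from GENCODE vM21 transcripts, 5′ to 3′ on the transcribed strand.
U2af1 88-base exon: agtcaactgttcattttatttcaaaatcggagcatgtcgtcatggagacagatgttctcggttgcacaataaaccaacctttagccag
The upstream (chr17:31652502-31652568) and downstream (chr17:31651646-31651712) 67-base exons follow, with capitals at the bases that differ between them.
upstream 67-base exon: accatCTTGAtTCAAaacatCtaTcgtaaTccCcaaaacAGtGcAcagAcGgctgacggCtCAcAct
downstream 67-base exon: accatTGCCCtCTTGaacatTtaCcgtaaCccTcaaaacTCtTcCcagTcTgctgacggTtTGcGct
They share 44 of 67 bases (65.7%). The junction sequences below show the usual joining of the first exon and the one that was more used in set 2, each with 15 bases on either side and with the downstream exon in capitals.
first exon to 88-base exon: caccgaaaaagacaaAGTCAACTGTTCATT
first exon to 50-base exon: caccgaaaaagacaaGTGCTGTGAGCGACG

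Junction reads summed over the table, in which a read can count in several events, came to between 13501749 and 18185394 per library. Of the 57 events, 53 had a mean of 20 or more reads per library and were kept for testing, and 26 of those had at least 5 reads per library, on average, on the rarer of their forms and are called variable. The kinds were 32 skipped exons, 8 retained introns, 6 alternative donors, 5 alternative acceptors and 6 pairs listed as mutually exclusive exons. A gene's junction total is the reads of its most covered event, scaled to the same sum in each library. On the first principal component of these totals (40.1% of the variance), library 1 of set 1 lay at -5.83. The set 2 libraries lay at -18.0 to -7.68 and the other set 1 libraries at 18.4 and 22.0. Hnrnpdl, the targeted gene, had 2014, 1806 and 1760 junction reads in set 1 and 2569, 2146 and 2034 in set 2. Its log2 ratio was -0.22 ± 0.09 (SE), limma adjusted p 0.392.

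In U2af1, messages in which the first exon was joined straight to the 50-base exon were more frequent in set 2 than in set 1. Reads on that junction numbered 0, 3 and 8 in the libraries of set 1 and 42, 17 and 24 in those of set 2. The sets did not overlap, and the lowest library of set 2 had more such reads than the highest of set 1. As a share of the reads counted as leaving the first exon, the direct junction took 0%, 0.890% and 2.72% in set 1. In set 2 it took 11.7%, 5.86% and 8.22%. The library with none had 313 reads counted as leaving the first exon. That allows a share of up to 0.958% by 3 counts and up to 1.17% by the exact 95% interval. Exact 95% intervals of the other libraries were 0.184% to 2.58% and 1.18% to 5.29% in set 1, and 8.59% to 15.5%, 3.45% to 9.22% and 5.34% to 11.98% in set 2. These intervals cover counting error only. The reads leaving the first exon were counted by subtracting overlapping events, and reads that cross a further junction could not be separated. Their number may therefore be too low and the shares too high. Summed over libraries, 11 of 944 counted reads (1.17%) in set 1 and 83 of 940 (8.83%) in set 2 took the direct route.

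**Figure D1:**
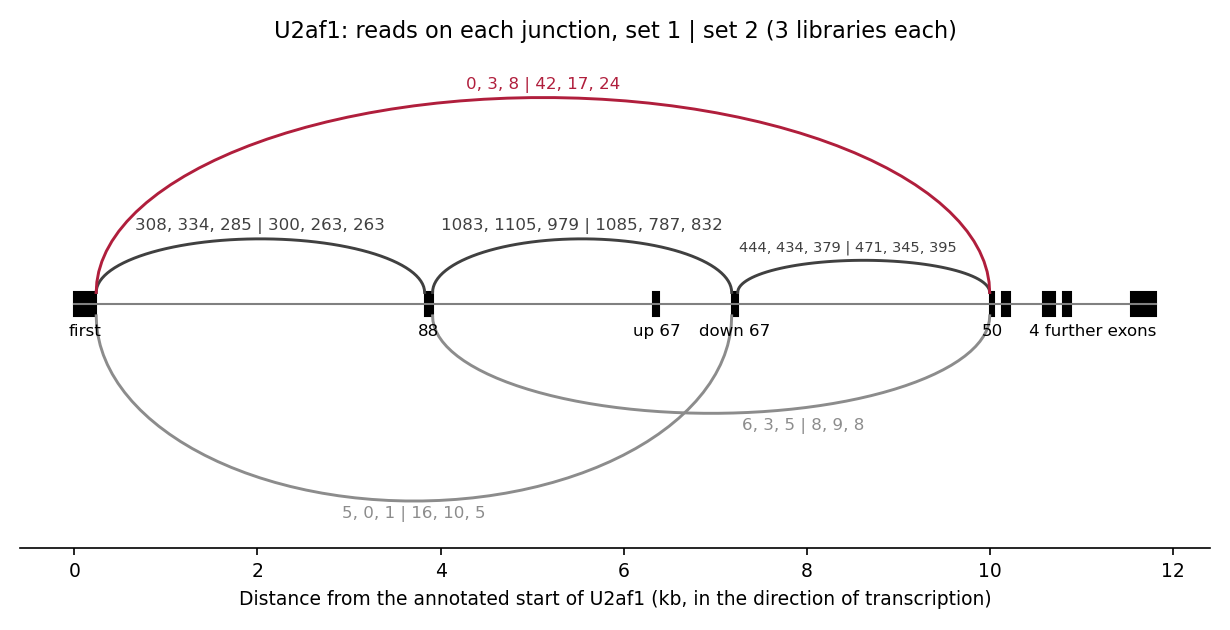
Map of U2af1 to scale, with exons as boxes and distance from the annotated start in kb on the x axis. An arc marks each junction whose reads were counted apart, for most of them by subtracting overlapping events. Reads crossing a further junction could not be separated. The numbers are reads in the 3 libraries of set 1, a bar, and the 3 of set 2. The red arc, first exon to 50-base exon, has 0, 3 and 8 against 42, 17 and 24. The junctions of the upstream 67-base exon could only be summed and have no arc.

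The authors' deposited table gives this junction as the skipping form of the 88-base exon. Inclusion level, the share of an event's reads on the inclusion form after scaling for the length of each form (0 to 1), was 1.0, 0.986 and 0.958 in set 1 and 0.822, 0.910 and 0.877 in set 2. The scaling allows for both junctions of the exon. Its junction to the 50-base exon had only 6, 3 and 5 reads in set 1 and 8, 9 and 8 in set 2. These levels are therefore not shares of messages with the exon. The mean level was 0.112 higher in set 1. It was 0.088 without library 1 of set 2, the library with the most direct reads. Without library 1 of set 1, which stood apart on the first component of junction totals, it was 0.102. As a share of reads not scaled by form length it was 0.0748. In the authors' deposited table the event has an adjusted p of 2.2e-11. The same skipping reads are counted against the downstream 67-base exon, whose levels, with the same limit, were 1.0, 0.99 and 0.971 against 0.889, 0.935 and 0.920. That event, 0.072 higher in set 1 and with adjusted p 8.75e-11 in the authors' deposited table, is the same observation counted again. Of the 57 events 2 met the call rule on the authors' values (adjusted p under 0.05 and a change of 0.10 or more), the 88-base exon of U2af1 and an exon of Slu7, against 0.645% of all events, a count that the choice of these genes fixed. Without the minimum change there were 3, against 1.13%.

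The other ways of leaving out a U2af1 exon were rarer. Reads joining the first exon to the downstream 67-base exon, which omit the 88-base exon alone, numbered 5, 0 and 1 in set 1 and 16, 10 and 5 in set 2. The lowest library of set 2 had as many as the highest of set 1. Between those flanks the level of the 88-base exon was 0.994, 1.0 and 0.999 against 0.982, 0.985 and 0.993. Reads joining the 88-base exon to the 50-base exon, which omit both 67-base exons, numbered 6, 3 and 5 against 8, 9 and 8. The 3 skipping junctions were thus each more covered in set 2, and the one that omits both the 88-base and a 67-base exon differed most.

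The full-length junctions did not differ in the same way. The first exon was joined to the 88-base exon by 308, 334 and 285 reads in set 1 and 300, 263 and 263 in set 2, ranges that overlap. The 88-base exon was joined to the downstream 67-base exon by 1083, 1105 and 979 reads against 1085, 787 and 832. The downstream 67-base exon was joined to the 50-base exon by 444, 434 and 379 reads against 471, 345 and 395. By subtraction, the count of the junction in the middle was the highest in every library. Reads that cross a further junction could not be separated, so these counts do not measure coverage along the gene. Of the gene's events, 5 of the 7 variable U2af1 events had all of set 1 above all of set 2, against 5.44% of variable events in the table. They share junctions with one another and are not 5 separate observations. U2af1 was also chosen by this same contrast, so the count is a description only.

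Choice between the alternative 67-base exons overlapped between the sets. Reads on both junctions of the upstream exon numbered 351, 348 and 392 in set 1 and 457, 379 and 342 in set 2. Those on the downstream exon numbered 1527, 1539 and 1358 against 1556, 1132 and 1227. The upstream exon took 18.7%, 18.4% and 22.4% of these reads in set 1 and 22.7%, 25.1% and 21.8% in set 2. The downstream exon was thus the main one in all 6 libraries, and library 3 of set 1 lay within the range of set 2. Between the 88-base and 50-base exons the upstream exon stood at 0.976, 0.988 and 0.982 against 0.975, 0.967 and 0.967, and the downstream exon at 0.994, 0.997 and 0.995 against 0.993, 0.989 and 0.991. A pairing of the downstream exon with the 88-base exon is also listed as exclusive, at 0.389 to 0.414 against 0.366 to 0.411. Reads joining these exons to each other were nonetheless found in every library.

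Reading frames were followed from the annotated start codon. Both annotated full-length forms encode 239 codons. Without the 88-base and 67-base exons the frame ends after 26 codons, 339 bases before the last exon junction. Without the 88-base exon alone it ends after 19 codons, without a 67-base exon after 46, and with both 67-base exons after 75. Stop codons more than about 50 bases upstream of the last junction are a known mark of messages degraded by nonsense-mediated decay (NMD), which was not measured here. The direct junction is also present in the annotated transcript U2af1-207, where GENCODE places the start codon further downstream, and which of the start codons was used was not measured.

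**Figure D2:**
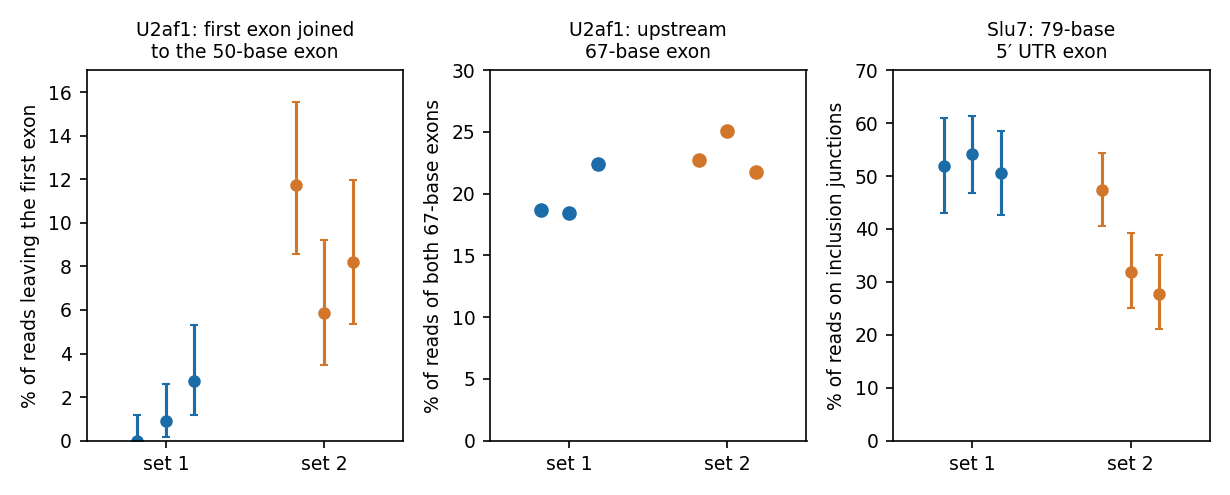
Each point is 1 library, set 1 in blue and set 2 in orange, and bars are exact 95% intervals (left and right panels). The direct U2af1 junction took 0% to 2.72% of reads counted as leaving the first exon in set 1 and 5.86% to 11.7% in set 2. The upstream 67-base exon took 18.4% to 25.1% with overlapping sets. Inclusion reads of the Slu7 exon made up 50.6% to 54.2% in set 1 and 27.7% to 47.4% in set 2.

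Slu7 (chr11:43433744-43447981, plus strand) differed in its 5′ untranslated region (5′ UTR). The 79-base exon at chr11:43436354-43436432, which lies before the coding sequence and is part of the annotated transcript Slu7-205, was included more in set 1. Inclusion reads numbered 66, 103 and 82 in set 1 and 102, 56 and 46 in set 2, and skipping reads 61, 87 and 80 against 113, 120 and 120. Inclusion levels were 0.415, 0.437 and 0.402 against 0.372, 0.234 and 0.201, a mean 0.149 higher in set 1. The sets did not overlap, but library 1 of set 2 lay nearer to set 1 than to the other libraries of set 2. Its share of inclusion reads, 47.4% (exact 95% interval 40.6% to 54.3%), was inside the intervals of the set 1 libraries, which ran from 42.7% to 61.4% at their outer ends. Without that library the difference was 0.20, and without library 1 of set 1 it was 0.151. In the authors' deposited table the event has an adjusted p of 0.0398. The sequence of this exon is not shown because it is untranslated.

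The rest of Slu7 was spliced alike in all libraries. Its other 5′ UTR exon, of 158 bases (chr11:43435054-43435211), had 1 inclusion read in library 2 of set 2 and 0 in the other libraries. Its 68-base coding exon (chr11:43442031-43442098) was skipped by 1 read, in library 1 of set 2, against 204 to 312 inclusion reads per library. The difference in Slu7 therefore concerned only its leader among the events listed.

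The remaining members had no called event, on the authors' values or in either test used here. Of 41 tested events in U2af2, U2af1l4, Sf1, Sf3b1 and Puf60, the quasi-binomial test, which sets the difference in inclusion share against the spread between libraries, called 0 (0.0% of all 39419 tested events) and gave 2 an unadjusted p under 0.05 (3.45% of all). Limma on logit levels called none of them (0, against 0.0% of all), and 3 had an unadjusted p under 0.05 (2.94% of all). Neither test called any event of the table, so the lack of calls does not set these genes apart from U2af1 and Slu7. No quasi-binomial adjusted p was below 0.735. The smallest in limma, 0.0913, was that of an intron of U2af2 (chr7:5068797-5069443) with 0 spliced reads in each library of set 1 and 1 in each of set 2, beside 24 to 37 reads of the retained form. Among their 18 variable events the median absolute difference was 0.0149, against 0.0208 over all variable events. Set 1 had the higher mean in 10 and the lower in 8. The sets did not overlap in 4 of the 18, against 10.9% of variable events in the table. Set 1 was the higher in 3 of these and the lower in 1, for which the shares over the table were 5.44% and 5.5%. The other 23 tested events were not variable, and none differed by more than 0.0711. The remaining 4 events of U2af1l4 had under 20 reads and were not tested.

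**Figure D3:**
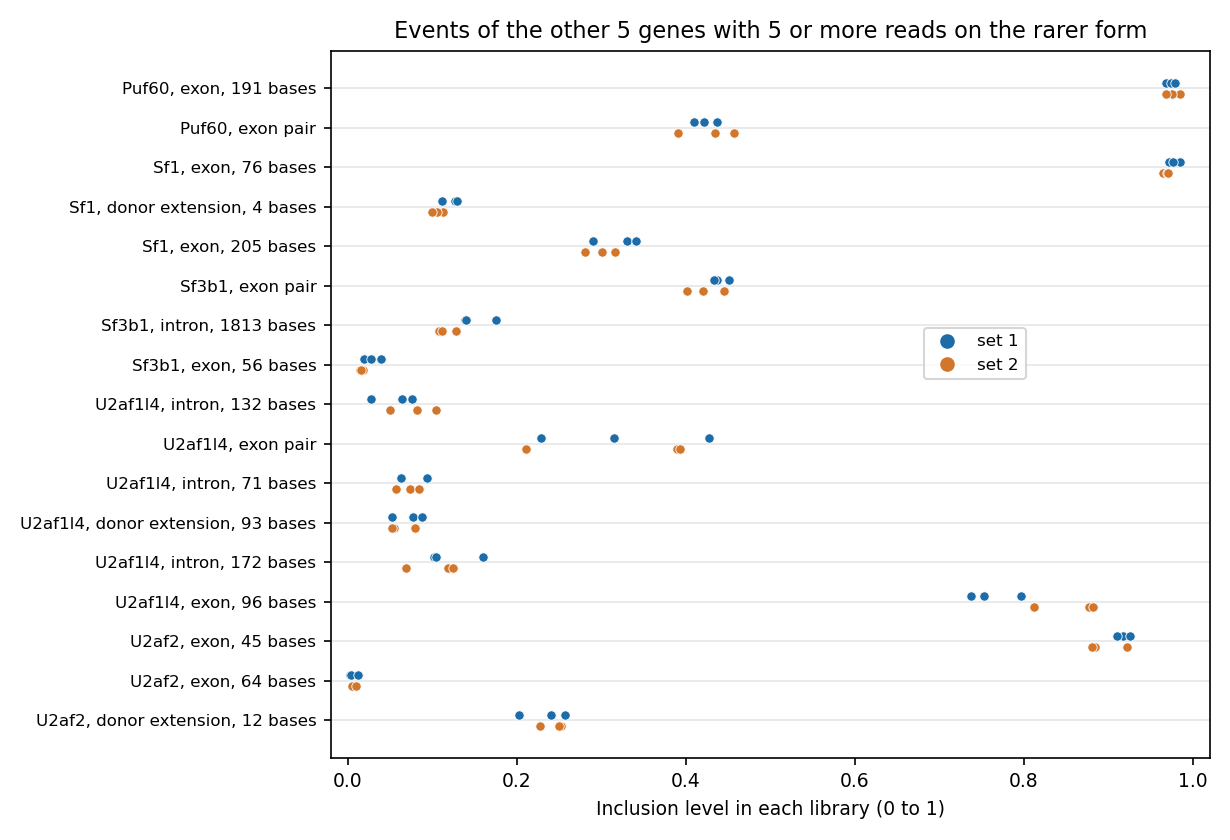
Inclusion level (x axis, 0 to 1) in each library for 17 of the 18 variable events of U2af2, U2af1l4, Sf1, Sf3b1 and Puf60. Set 1 is blue and set 2 orange. The sets stand apart in the 96-base exon of U2af1l4 (0.737 to 0.797 against 0.812 to 0.881) and closely in 3 others, and overlap in the rest.

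U2af1l4 (chr7:30563301-30565365, plus strand), the paralogue of U2af1, has an 88-base, a 67-base and a 50-base exon, lengths that also occur in U2af1. Its 67-base exon (chr7:30563930-30563996) is shown with capitals at the bases that differ from the downstream 67-base exon of U2af1.
U2af1l4 67-base exon: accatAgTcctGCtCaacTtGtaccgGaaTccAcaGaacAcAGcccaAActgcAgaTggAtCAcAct
It shares 67.2% of its bases with the downstream and 68.7% with the upstream exon of U2af1. The 88-base exons of the genes share 72.7% and the 50-base exons 84.0%. The 67-base exon of U2af1l4 was skipped by 0, 0 and 0 reads in set 1 and 3, 0 and 3 in set 2, beside 122 to 189 inclusion reads.

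The widest difference among the tested events of these 5 genes was in a 96-base coding exon of U2af1l4 (chr7:30564703-30564798). Its direction was opposite to that of the 88-base exon of U2af1, which is not the corresponding exon. The 96-base exon is shown because its omission keeps the frame.
U2af1l4 96-base exon: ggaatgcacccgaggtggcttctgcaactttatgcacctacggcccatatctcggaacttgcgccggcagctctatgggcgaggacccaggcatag
Inclusion reads were 140, 124 and 109 in set 1 and 222, 141 and 146 in set 2, and skipping reads 28, 27 and 17 against 19, 20 and 12. Levels were 0.753, 0.737 and 0.797 against 0.877, 0.812 and 0.881. All of set 1 lay below set 2, with the nearest libraries close together. The difference was -0.094, which did not pass (quasi-binomial p 0.0269, adjusted p 0.735). The authors' deposited table gives it an adjusted p of 0.101, outside the call rule on both counts. Without the exon the annotated frame has 188 codons in place of 220.

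The other variable U2af1l4 events overlapped between the sets, with means of 113 to 172 reads per library, against 167.5 for the 96-base exon. Its intron of 172 bases (chr7:30564302-30564473) was retained at 0.102, 0.105 and 0.160 in set 1 and 0.0687, 0.119 and 0.124 in set 2. The introns of 132 and 71 bases were retained at 0.0278 to 0.0761 against 0.0505 to 0.104, and at 0.0627 to 0.0935 against 0.0566 to 0.0846. A 93-base donor extension was used at 0.0517 to 0.0875 against 0.0517 to 0.0790. A pair of exons listed as mutually exclusive had levels of 0.228 to 0.427 against 0.211 to 0.393. Of the 21 events under this symbol 5 carry the identifier of an overlapping locus (Gm49396 in GENCODE), so their reads cannot be assigned to U2af1l4 alone.

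U2af2 (chr7:5062143-5079938, plus strand), the pyrimidine-tract partner of U2af1, varied at 3 places. Its 45-base coding exon (chr7:5067210-5067254) and a 12-base extension of a donor (chr7:5075228-5075239) both change the protein by whole codons and are shown for that reason. The second sequence is the end of the exon, with the extension in capitals.
U2af2 45-base exon: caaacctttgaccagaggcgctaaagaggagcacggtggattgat
U2af2 exon end with 12-base extension: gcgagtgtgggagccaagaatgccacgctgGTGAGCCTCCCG
Levels of the 45-base exon were 0.918, 0.925 and 0.910 in set 1 and 0.922, 0.884 and 0.880 in set 2. Library 1 of set 2 lay among those of set 1, and the difference of 0.023 did not pass (quasi-binomial adjusted p 0.735). The annotated protein has 471 codons and 456 without this exon. The 12-base extension was used at 0.258, 0.24 and 0.203 against 0.253, 0.25 and 0.227, and gives 475 codons. The sets overlapped fully. A 64-base exon (chr7:5068733-5068796) was included at 0.0025 to 0.0124 in set 1 and 0.0055 to 0.0101 in set 2. An acceptor 190 bases upstream (chr7:5067354-5067543), which is used when the 45-base exon is absent and ends the frame after 111 codons, had 11, 4 and 2 reads against 2, 5 and 3.

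Sf1 (chr19:6363690-6378030, plus strand), which encodes the branch point binding protein, had 3 such events. Its 76-base coding exon (chr19:6368364-6368439) was included at 0.972, 0.985 and 0.976 in set 1 and 0.965, 0.969 and 0.970 in set 2. The sets were separate but by a narrow margin, and the difference of 0.0096 did not pass (quasi-binomial adjusted p 0.735). Leaving it out ends the frame after 110 codons. A 205-base exon near the end of the gene (chr19:6375658-6375862) was included at 0.331, 0.341 and 0.290 against 0.317, 0.281 and 0.30. A 4-base donor extension (chr19:6374284-6374287), which changes the frame of the tail of the protein, was used at 0.112, 0.127 and 0.130 against 0.112, 0.106 and 0.0992. The sets overlapped in both.

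Sf3b1 (chr1:54985169-55027481, minus strand) differed in 1 intron, by amounts that did not pass. The intron at chr1:55014563-55016375 was retained at 0.175, 0.139 and 0.14 in set 1 and 0.108, 0.128 and 0.111 in set 2. All of set 1 lay above set 2, and the difference was 0.036 (quasi-binomial p 0.0459, adjusted p 0.735). A 56-base exon inside it (chr1:55014869-55014924), part of the NMD transcript Sf3b1-208, was included at 0.0191, 0.0397 and 0.0278 against 0.0179, 0.0145 and 0.0160. The inclusion reads behind that were 9, 20 and 12 against 11, 7 and 8, and both events share the reads of the spliced intron, 306 to 353 in set 1 and 348 to 440 in set 2. With the exon the frame ends after 144 codons in place of 1304. A pair of Sf3b1 exons is listed as mutually exclusive, but each alone was included at 0.992 or more in every library. The level of the pair was 0.434 to 0.452 against 0.401 to 0.445.

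Puf60 (chr15:76070182-76080924, minus strand) encodes the relative of U2AF2. A 191-base exon (chr15:76071466-76071656) was included at 0.969 to 0.979 against 0.968 to 0.985. A pair of neighbouring exons listed as mutually exclusive stood at 0.409 to 0.437 against 0.390 to 0.458, but the lowest level of either alone was 0.9949.

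Junction totals, the reads of the most covered event of each gene in CPM, each library's reads scaled to the same sum, were close in the sets for all 7 genes. A total follows the amount of message, but fewer cells of a type and less RNA per cell cannot be told apart in it. U2af1 had 373, 448 and 430 CPM in set 1 and 368, 354 and 387 in set 2, with a log2 ratio of 0.17 ± 0.10 (SE), and the sets overlapped. Slu7 had 40.5, 51.7 and 57.8 CPM against 57.2, 49.4 and 53.6, with a log2 ratio of -0.11 ± 0.16 (SE). For the other 5 genes none passed (limma adjusted p 0.885 to 0.988, with 0 at an unadjusted p under 0.05), while 1.06% of all 8285 genes did. Their log2 ratios were -0.08 ± 0.13 for U2af2, 0.15 ± 0.16 for U2af1l4, -0.05 ± 0.11 for Sf1, 0.02 ± 0.14 for Sf3b1 and 0.05 ± 0.09 for Puf60 (SE). Their median was 0.02, and that of all genes 0.01. None of the 7 genes had sets that did not overlap, against 14.1% of all genes.

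**Figure D4:**
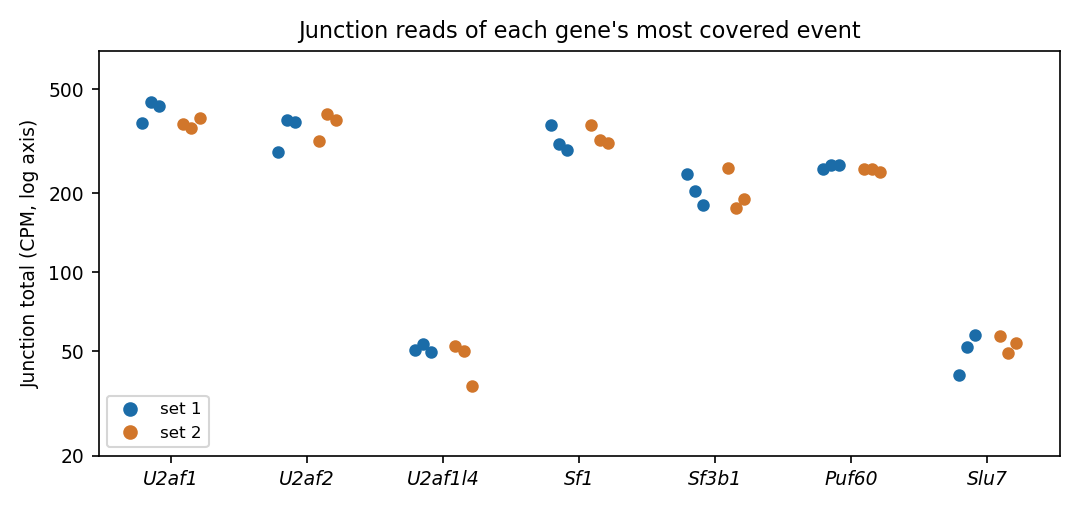
Junction total in CPM (log axis) of each gene's most covered event, with 1 point per library, set 1 in blue and set 2 in orange. The sets overlap in each of the 7 genes, and U2af1 lies between 354 and 448 CPM.

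Events whose levels followed the lead U2af1 and Slu7 events over the 6 libraries were listed as a description, with Pearson's r as the measure. For the 88-base exon of U2af1 the most alike of 7579 events were an acceptor of Slc38a10 (r 0.980), an exon of Usp34 (r 0.975) and an acceptor of Rev1 (r 0.974), and 14 exceeded 0.95. The Usp34 exon was at 1.0 in all libraries of set 1 and at 0.879, 0.959 and 0.927 in set 2, with library 1 lowest as in U2af1. For the Slu7 exon the most alike of 7580 were an acceptor of Clint1 (r 0.991), an exon of Mdm2 (r 0.99) and an exon of Nbr1 (r 0.987). The Mdm2 exon was at 0.924, 0.925 and 0.927 against 0.916, 0.864 and 0.854, again with library 1 of set 2 near set 1. Of the 7580 events, 21 exceeded 0.95. All points share the same 6 libraries. The named events were picked for the highest r, so their likeness to the lead events, library by library, follows from that choice. How many events would exceed 0.95 by chance was not tested.

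Neighbours of these proteins in the spliceosome showed no called event. Of 20 genes of the U2 snRNP and its associates, 18 were in the table with 79 events, and the authors' values called 0, as did the quasi-binomial test on the 77 tested, with 0 at an unadjusted p under 0.05. Limma on logit levels also gave 0 and 0. Of their 26 variable events, none had sets that did not overlap, against 10.9% over the table, and the share of all tested events with an unadjusted p under 0.05 was 3.45% in the quasi-binomial test and 2.94% in limma. Of 4 second-step genes, which act beside SLU7, 2 were in the table with 6 events, and 0 were called by the quasi-binomial test or limma, with 0 at an unadjusted p under 0.05. Of 8 minor spliceosome genes, which act beside ZRSR2, 5 were in the table with 24 events, of which 22 were tested and again 0 were called or had an unadjusted p under 0.05 in either test. The junction totals of these 25 genes gave 0 calls in limma, against 1.06% of all genes, and 1 gene, the second-step factor Prpf18, had an unadjusted p under 0.05. Of the neuronal and neuroblastoma markers 4 of 11 genes were in the table, with summed totals of 570, 323 and 275 CPM in set 1 and 590, 587 and 443 in set 2. In that list Dbh, an enzyme of noradrenaline synthesis, was lower in set 1 (log2 ratio -2.37, limma adjusted p 0.00347), and Gap43, a growth cone protein, had 409, 142 and 112 CPM against 417, 404 and 279. The other markers went the other way by less, with log2 ratios of 0.02 for Elavl4, an RNA-binding protein of neurons, and 0.28 for Map2, a dendritic protein, neither past limma's threshold. Of the 21 tested events of these markers 0 were called, with 2 at an unadjusted p under 0.05 in the quasi-binomial test and 3 in limma. Library 1 of set 1 thus lay with set 2 in that sum, while in the U2af1 junction it was the farthest from set 2. Of glial markers 2 of 6 genes were in the table and none was tested for want of reads, and of fibroblast markers 0 of 3 were listed. The part of these markers in the splicing results was not tested.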

How the data were processed

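Total RNA of the 6 libraries was extracted with Trizol and prepared with the NEBNext Ultra kit, per the labels' protocols. The submitters' processing notes name Bowtie2 2.2.3, HISAT2 2.1.0, HTSeq 0.6.0 and build mm10, without roles. The deposited table is in rMATS layout, per the file headers, with whole-number counts on inclusion and skipping junctions, inclusion levels, p-values and adjusted p. No rMATS version or annotation is given in the sources used here. It names the sets only as sample 1 and sample 2. Levels recomputed from the deposited counts came within 0.0005 of those the table gives.

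The members and lists were chosen with earlier results of these data known. All 8 genes were described, naming the events called or variable (5 or more reads per library on the rarer of 2 forms). Of these, 1 event is not reported here. Whether libraries are separate cultures is not stated by the labels, so p-values measure the spread between these libraries. Events with a mean of 20 or more reads (39419) were tested over the whole table, in R 4.3.3, by a quasi-binomial test whose dispersion was moderated with limma 3.58.1 along the rarer form's reads and held at 1 or more, with Benjamini-Hochberg adjustment. A call needed adjusted p under 0.05 and a change of 0.10. Limma on logit levels held between 0.01 and 0.99 was the alternative. Junction totals were tested as log2(CPM + 1) with limma, a scale that understates changes of genes with few reads. Both tests were tested on simulated data. U2af1 junctions were separated by subtracting overlapping events, which left a remainder of at most 2 reads. That remainder cannot show how reads crossing a further junction were allotted. Exons, frames and sequences came from GENCODE vM21.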

Additional observations from a re-analysis of the deposited data

How the results depend on the processing

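Over the whole table the quasi-binomial test called 0 events, 11 with the dispersion prior taken from events with at least 1 read of the rarer form and 64 with it along the total count. Leaving out each library gave 0 to 5, with 5 without library 1 of set 1 and 2 without library 3 of set 1. The events of U2af2, U2af1l4, Sf1, Sf3b1 and Puf60 had 0 calls under every setting run. For their 18 variable events the smallest adjusted p was 0.321, and 13 of 216 values in 7 events changed sign, none of them called. Over their 41 tested events limma on logit levels gave a smallest adjusted p of 0.0913, for the U2af2 intron with 0 or 1 spliced read per library. Of the calls on the authors' values, 2 events became 1 at an adjusted p under 0.01, the U2af1 exon. The U2af1 difference was 0.0748 as a share of reads not scaled by form length and 0.0880 to 0.132 with each library left out. The Slu7 difference was 0.115 to 0.20 with each library left out. Junction totals called 88 genes, and 26 to 283 with each library left out: 283 without library 1, 26 without library 2 and 42 without library 3 of set 1, and 32 without library 2 and 43 without library 3 of set 2. No total of a member was called under any setting run, and 9 of 70 values in 5 genes changed sign. The cause of these shifts was not tested. No paired analysis was possible because the columns carry no replicate number of the labels. Depth limits events whose rarer form had few reads: this holds for the 23 tested events of the other members that were not variable, and the direct U2af1 junction in set 1 rests on 11 reads.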
